A study of Mus musculus with 12 samples.

Results

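The CatSper genes encode the calcium channel of the sperm tail. The 10 mouse genes described here were chosen by name: Catsper1, Catsper2, Catsper3, Catsper4, Catsperb, Catsperd, Catsperg1, Catsperg2, Catspere1 and Catspere2. They are 10 of the 21887 protein-coding genes that RefSeq places on the 21 chromosomes of GRCm38. For each gene, nucleosome calls were counted whose midpoint lay in the gene body or within 1000 bp of it. This family was picked with its counts already known, so the counts are a description and no test was made of them.

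CatSper opens when the inside of the sperm cell becomes alkaline, and the calcium that enters drives the whip-like tail beat called hyperactivation. Catsper1, Catsper2, Catsper3 and Catsper4 each encode a pore-forming subunit, and a channel holds one of each. Catsperb, Catsperd, Catspere1, Catspere2, Catsperg1 and Catsperg2 encode accessory subunits (beta, delta, epsilon and gamma) with large parts outside the cell. Male mice that lack a pore subunit are infertile, and the genes are transcribed in the germ cells of the testis.

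Nucleosomes were mapped by MNase-seq, in which micrococcal nuclease removes unprotected DNA and the protected fragments are sequenced. All cells came from testes of adult male SV129 mice aged 8 to 12 weeks, with no genetic change or drug, and 11 mice were pooled per collection. The labels name a Meiotic Spermatid fraction (M below), which their protocol calls meiotic, and a Round Spermatid fraction (RS below), the haploid cells that follow meiosis. Each fraction was separated by sedimentation to a purity of at least 85%, and its cells were exposed to 0.5, 1 or 2 U of the nuclease, with 2 times as many cells in RS. Each of the 6 combinations had 2 samples. The authors made 1 list of calls from each pair, so every value below has no replicate behind it. No RNA was measured here, so the identity of the fractions could not be checked against marker genes, and other cells may make up the rest of each fraction.

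The M lists held 42178, 60077 and 65614 calls at 0.5, 1 and 2 U. The RS lists held 179133, 41655 and 27101. Because list sizes differ so much, counts are given per 100000 calls of the same list, and this scale shows only how a list divides its calls over the genome. Each call is 140 bp long, and its p-value corresponds to at least 6 reads in every list. The Poisson mean implied by these p-values was 0.696 in RS at 0.5 U and between 0.409 and 0.507 in the other lists. The same 6 reads are therefore less exceptional in RS at 0.5 U, the largest list. A count of 0 in a list allows up to 3 calls, which is 7.11, 4.99 and 4.57 per 100000 for the M lists, and 1.67, 7.20 and 11.1 for the RS lists. The 95% intervals cover counting error alone, and they are too narrow where neighbouring calls overlap. Intervals of RS minus M for single genes are built otherwise, as given below, and are wider than 95% intervals of counting error.

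The CatSper genes had few calls in M and many more in RS. Over the 10 genes together, 9 calls were found in the 3 M lists and 67 in the 3 RS lists. By mean calls per 100000 over the 3 amounts, 8 of the 10 genes were higher in RS and none was higher in M. Catsper2 and Catsperd were without calls in all 6 lists. For each gene the counting interval of RS minus M ran from a negative to a positive value. At Catspere1 it ran from -3.91 to 24.8. These intervals are wider than counting error alone would give, so they cannot decide whether any gene taken alone differed between the stages. The ratio of RS to M at Catspere1 at 1 U was 10.1 (1.30 to 455), which rests on 7 calls against 1. The intervals of the ratios formed for Catspere2, Catsperb and Catsper3 all included 1. With 5000 bp on each side, Catsperd had calls and was higher in M, with a difference of RS minus M of -1.52 per 100000. Among all protein-coding genes, 38.4% were higher in RS, 25.5% were higher in M and 36.1% had no call. CatSper genes are longer than most, with a median window of 37.8 kb against 19.2 kb. Among the 13754 genes with a window between 10.7 and 223 kb, the range of the family, 48% were higher in RS, 30% were higher in M and 22% had no call.

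**Figure D1:**
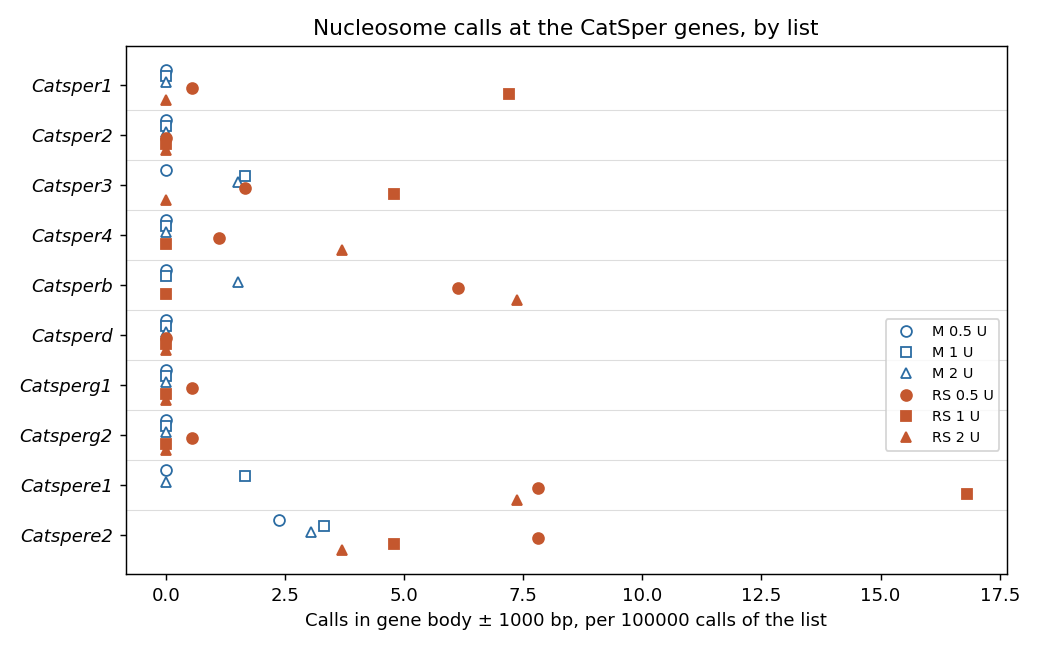
Calls in each CatSper gene body with 1000 bp on each side, per 100000 calls of the list, with open blue symbols for M and filled orange symbols for RS (circle 0.5 U, square 1 U, triangle 2 U; 1 list per symbol, no error bars). Catspere1 in RS at 1 U lies farthest right at 16.8, and Catsper2 and Catsperd stay at 0 in all 6 lists.

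Calls were found at more CatSper genes in RS than in M at each amount, though at 1 and 2 U by only 4 genes against 3. In M, 1 gene had a call at 0.5 U, 3 at 1 U and 3 at 2 U, where 14.9%, 22.9% and 27.6% of all protein-coding genes had one. In RS the numbers were 8, 4 and 4 genes, where 47.6%, 22.2% and 16.8% of all protein-coding genes had one. Among the 13744 other genes in the family's length range, the shares were 16.6%, 27.2% and 33.5% in M. In RS they were 60.4%, 26.9% and 19.8%. The 3 of 10 genes in M at 1 and 2 U are thus close to the share of genes of such length. Compared at the same amount, 8, 4 and 4 CatSper genes were higher in RS, against 39.7%, 17.3% and 13.2% of all protein-coding genes. In the other direction 0, 0 and 1 CatSper genes were higher in M, against 10.4%, 16.4% and 21% of all protein-coding genes. Catspere1 and Catspere2 were higher in RS at each of the 3 amounts, which held for 2.81% of all protein-coding genes and 3.52% of those in the family's length range.

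The pore genes had calls mainly in RS. Catsper1, the founding member of the family, spans 8.67 kb (chr19:5335615-5344281) and had 0, 0 and 0 calls in M against 1, 3 and 0 in RS, from 0.5 to 2 U. This is 7.20 per 100000 in RS at 1 U. The 4 calls lay at 4 separate places, 1 of them just outside the gene. Catsper1 thus had calls in RS only, although its M counts of 0 allow up to 4.99 per 100000 at 1 U, and the gene Cst6 also reaches into its window. Among genes of similar length the median in M was 0 too, and 50.9% had no call in any list.

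Catsper4 spans 15.5 kb (chr4:134211965-134227431) and had no call in M against 2, 0 and 1 calls in RS. The 2 calls at 0.5 U overlapped each other, so they mark a single place. Catsper3 spans 39.5 kb (chr13:55784500-55824048) and had 0, 1 and 1 calls in M against 3, 2 and 0 in RS. It was the only pore gene with calls in both stages, and at 2 U it was higher in M. At 1 U its ratio of RS to M was 2.88, with an interval from 0.150 to 170 that includes 1. Catsper2 (23.0 kb, chr2:121391633-121414598), whose window overlaps Pdia3, had no call in any list.

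Among the accessory genes outside chromosome 1, Catsperb held nearly all calls. It is the longest of the 10 genes at 221 kb (chr12:101404645-101626009), and had 0, 0 and 1 calls in M against 11, 0 and 2 in RS. The RS calls lay at 10 places between 6.54 and 156 kb from its start. RS was not high throughout, since the list at 1 U had no call there. Catsperg1 (chr7:29181532-29215589) and Catsperg2 (chr7:29697217-29727049) encode 2 versions of the gamma subunit and had 1 call each, in RS at 0.5 U. Catsperd (37.5 kb, chr17:56626911-56664456) had none in any list. For these last genes the counts do not distinguish the stages at this depth.

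**Figure D2:**
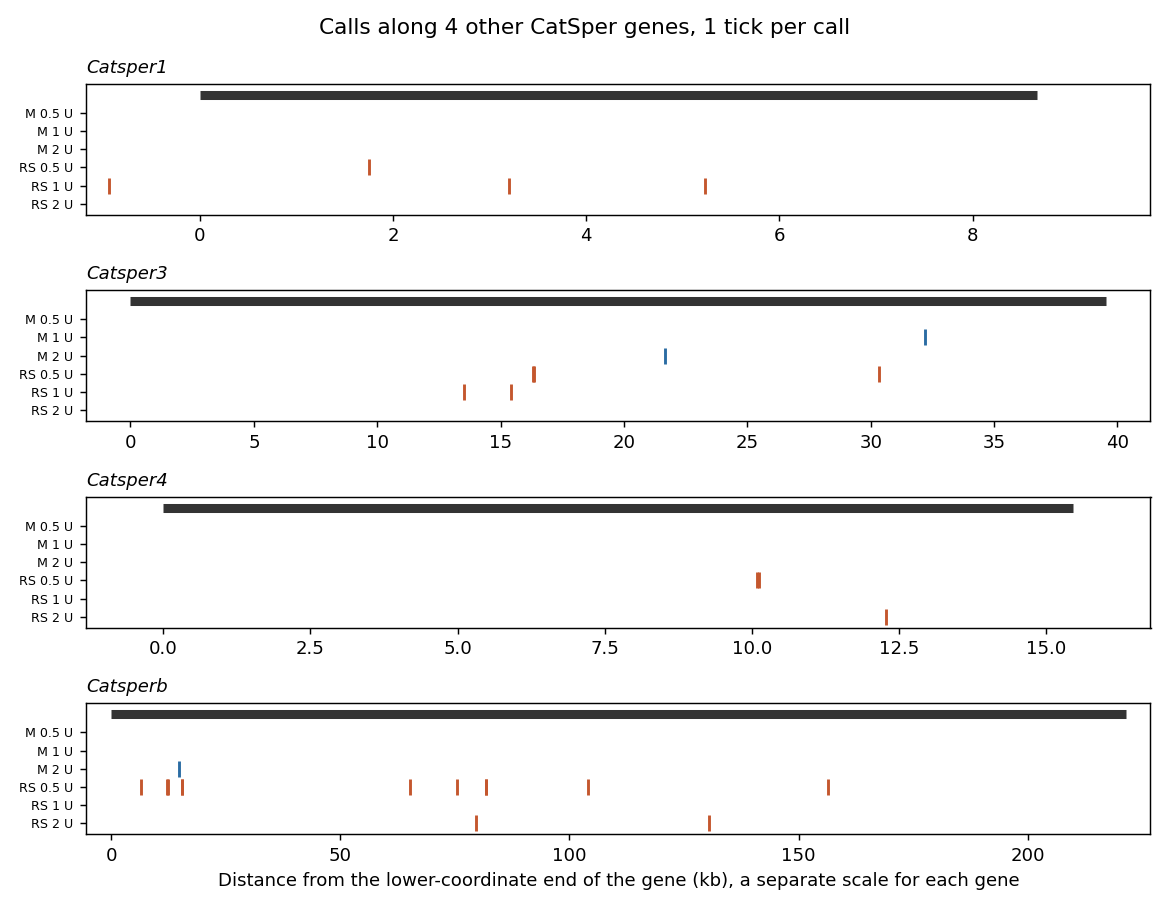
Each tick is 1 call, placed by its distance in kb from the lower-coordinate end of the gene (black bar) on a separate scale for each gene, with 1 row per list and M in blue and RS in orange. Catsper1 and Catsper4 have ticks only in RS rows, Catsper3 has 2 ticks in M rows, and Catsperb has 1.

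Most calls of the family fell on chromosome 1, at the neighbouring epsilon genes. Catspere1 (153.8 kb, chr1:177808419-177962253) and Catspere2 (189.6 kb, chr1:177983155-178172707) held 46 of the 76 calls (60.5%) on 44.9% of the window length. Their copies are alike in sequence, and how the aligner treated reads that match 2 places is not given in the sources used here, so counts may be divided between them in ways the lists do not show. To show how alike they are, the 250 bases before an annotated transcript start are printed from the GRCm38.p6 RefSeq promoter table, both on the plus strand and 5′ to 3′. Capitals mark bases that differ from the other copy, or that lie opposite a gap, in a global alignment. The coordinates are chr1:177808169-177808418 for Catspere1 and chr1:177991148-177991397 for Catspere2.
Catspere1: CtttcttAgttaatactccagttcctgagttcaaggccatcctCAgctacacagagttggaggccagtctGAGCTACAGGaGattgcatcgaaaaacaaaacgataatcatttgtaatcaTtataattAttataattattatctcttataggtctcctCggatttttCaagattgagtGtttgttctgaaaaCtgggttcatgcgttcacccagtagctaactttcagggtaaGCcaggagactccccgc
Catspere2: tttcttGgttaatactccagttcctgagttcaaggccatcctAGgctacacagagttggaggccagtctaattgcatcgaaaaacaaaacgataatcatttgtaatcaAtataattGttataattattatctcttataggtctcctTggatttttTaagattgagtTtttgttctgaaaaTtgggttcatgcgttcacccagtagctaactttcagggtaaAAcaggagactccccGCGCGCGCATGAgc
The alignment has 227 identical bases in 262 columns, or 86.6% identity. The Catspere2 start used here lies inside the longest annotated extent of that gene, and a second listed start of Catspere2 gave 63.9%. The window of that second start, chr1:177991185-177991434, overlaps most of the first. Both values thus come largely from the same Catspere2 bases, aligned from end to end at different offsets.

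Catspere1 had the largest difference between the stages in mean calls per 100000, a value not scaled for gene length. Its RS minus M was 10.1, with a counting interval from -3.91 to 24.8 that includes 0. Per Mb of window, Catsper1 and Catsper4 differed more. Catspere1 had 0, 1 and 0 calls in M against 14, 7 and 2 in RS, which is 0, 1.66 and 0 per 100000 in M and 7.82, 16.8 and 7.38 in RS. The RS values were above each M value, and the single M call lay 2.28 kb from the gene start. At 1 U the ratio of RS to M was 10.1 (1.30 to 455), which rests on 7 calls against 1. Those 7 calls lay at 3 places. Against the 836 other protein-coding genes with windows of similar length, from 125 to 195 kb, its mean of 10.7 per 100000 in RS was above 96.1%, and its mean of 0.555 in M was above 13.4%. The other genes, each set in RS against genes of similar length, lay on both sides of the middle. Catsper1 was above 98.0%, Catsper4 above 90.9%, Catsper3 above 83.4% and Catspere2 above 55.7%. Catsperg2 was above 31.0%, Catsperb above 29.5% and Catsperg1 above 24.9%, and Catsper2 and Catsperd, with no call, were above none. Catsperg1 and Catsperg2 were thus above only the genes with no call in RS. Of the genes of similar length, 38.5% for Catsper2 and 22.1% for Catsperd had no call in RS either. Catsperb, with 13 calls in RS, had a mean of 4.51 per 100000 there, below the median of 5.96 for its length. In M, set against the same genes, Catsper3 was above 71.2%, Catspere2 above 35.2% and Catsperb above 3.79%. The members with no call in M were above none. For Catsper1, Catsper2, Catsper4 and Catsperg2, however, the median of genes of similar length in M was 0 as well. For Catsperd and Catsperg1 that median was 0.508.

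Catspere2 differed less. It had 1, 2 and 2 calls in M against 14, 2 and 1 in RS, or 2.37, 3.33 and 3.05 per 100000 in M and 7.82, 4.80 and 3.69 in RS. RS was above M at each amount, but the intervals of the ratio included 1 each time: 3.30 (0.502 to 139) at 0.5 U, 1.44 (0.105 to 19.9) at 1 U and 1.21 (0.0205 to 23.3) at 2 U. At 2 U the higher RS value came from 1 call against 2, because the RS list is smaller. Of its 14 calls in RS at 0.5 U, 10 lay in the first 16.8 kb of the gene or just before it, close to the start used above. From 178003487 to 178090941, a stretch of 87.5 kb in the middle of the gene, there was no call in any list. With the stretches before the first and after the last call included, the longest was 26.2 kb in Catspere1 and 64.8 kb in Catsperb, at the far end of the gene.

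**Figure D3:**
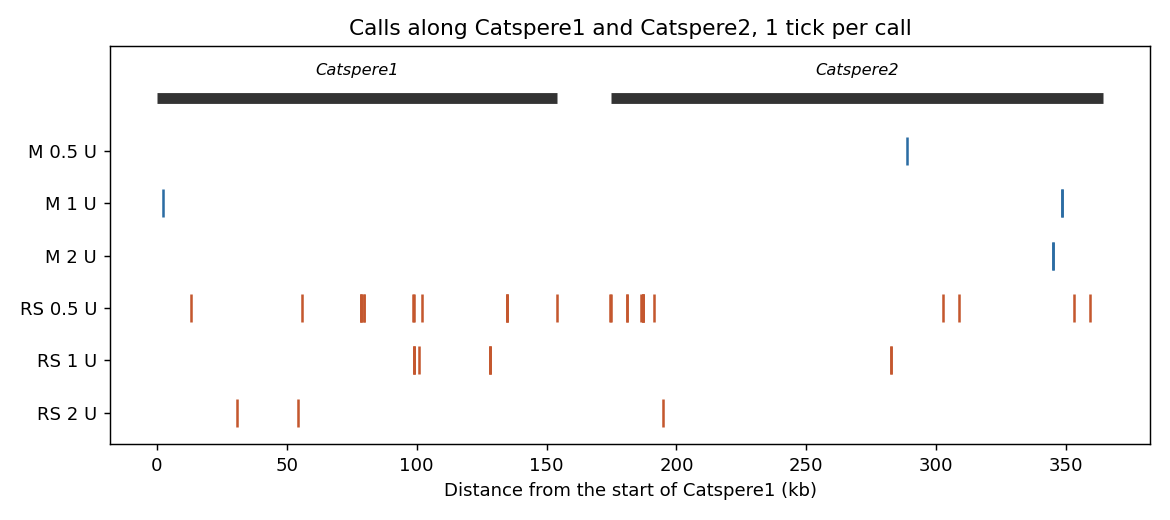
Calls in the windows of Catspere1 and Catspere2 as ticks, 1 per call, by distance in kb from the start of Catspere1, with 1 row per list (M blue, RS orange) and black bars for the genes. RS rows have ticks along Catspere1 while M rows have 1, and the middle of Catspere2 is empty in all 6 rows.

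A region of chromosome 1 was then counted that begins 58.4 kb before Catspere1 and ends 16.8 kb into Catspere2. It held 0, 1 and 0 calls in M against 30, 7 and 2 in RS. Spread evenly over the autosomes, each list would have put 4.39, 6.25 and 6.83 calls there in M and 18.6, 4.34 and 2.83 in RS. M was therefore below its own average in this region, and RS was above its average at 0.5 and 1 U and below it at 2 U. At 1 and 2 U the counting intervals of RS include that average, so these 2 lists are not set apart from it. The 30 calls at 0.5 U lay at 19 places and the 7 calls at 1 U at 3. In RS at 0.5 U the calls lay in 12 of the 25 bins of 10 kb, with no bin above 6 calls. Adss, an enzyme gene of purine synthesis between the region's edge and Catspere1, had 0, 0 and 0 calls in M against 1, 0 and 0 in RS. At the edge, 1700016C15Rik went the other way with 0, 0 and 3 calls in M and none in RS. That gene begins before the region, and its calls in M lay outside the region and are not in the counts above.

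Summed over the family, RS exceeded M at each amount. M had 1, 4 and 4 calls, or 2.37 (0.0600 to 13.2), 6.66 (1.81 to 17.0) and 6.10 (1.66 to 15.6) per 100000. RS had 47, 14 and 6 calls, or 26.2 (19.3 to 34.9), 33.6 (18.4 to 56.4) and 22.1 (8.12 to 48.2) per 100000. The lowest RS value was above the highest M value. The ratio of RS to M was 11.1 (1.89 to 446) at 0.5 U, 5.05 (1.59 to 21.1) at 1 U and 3.63 (0.861 to 17.5) at 2 U. The last interval includes 1. With 5000 bp on each side, M at 2 U rose to 10.7 per 100000 and the log2 ratio there was 1.05, against 1.86 with 1000 bp. With only calls of more than 6 reads the order at 2 U turned round, as 2 calls remained in M and none in RS. For all other protein-coding genes the ratios were 1.26, 1.12 and 1.03. At equal MNase per cell the family's ratios were 14.2 (2.16 to 599) with M at 0.5 U set against RS at 1 U, and 3.33 (0.789 to 16.02) with M at 1 U set against RS at 2 U.

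Calls per Mb were then pooled over the family and set against other genes. Per Mb of window, the CatSper genes had 0.115, 0.282 and 0.238 times the calls of all other protein-coding genes in M. The corresponding intervals were 0.00290 to 0.638, 0.0769 to 0.723 and 0.0648 to 0.609. In RS they had 1.01 (0.742 to 1.34), 1.27 (0.695 to 2.13) and 0.842 (0.309 to 1.83) times the calls. The 3 intervals in M lie below 1 and those in RS include 1. These are pooled values, and in RS single genes lay on either side of other genes. Without Catspere1 the density over the 3 lists was 0.252 times that of other genes in M and 0.852 times in RS.

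**Figure D4:**
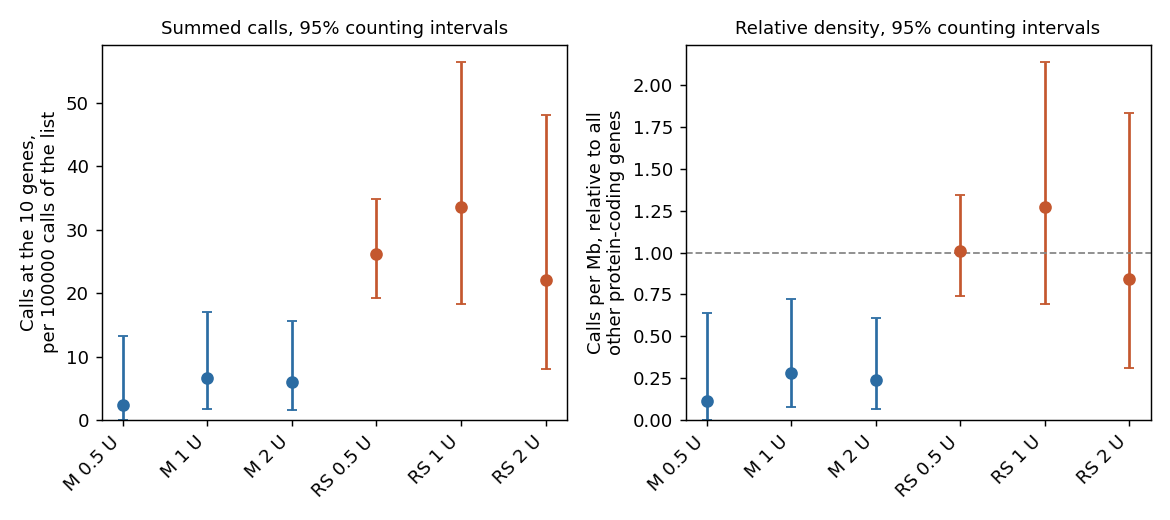
Left, calls at the 10 CatSper genes per 100000 calls of each list; right, their calls per Mb of window over those of all other protein-coding genes, with a dashed line at 1 (points are single lists, bars are 95% counting intervals, M blue and RS orange). The M lists lie between 2.37 and 6.66 on the left and between 0.115 and 0.282 on the right, and the RS lists scatter around the dashed line.

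Single genes differed in density within RS. As means over the 3 amounts, calls per Mb of window and per 100000 calls were 243 at Catsper1, 91.7 at Catsper4, 68.4 at Catspere1, 52.0 at Catsper3, 28.4 at Catspere2 and 20.2 at Catsperb. Catsperg2 followed with 5.85 and Catsperg1 with 5.16, and the mean over all other protein-coding genes was 34.0. The values of Catsper1 and Catsper4 rest on 4 and 3 calls in short windows, so their place in this order is uncertain. In M the same measure was 25.6 at Catsper3, 15.2 at Catspere2, 3.56 at Catspere1, 2.27 at Catsperb and 0 at the other genes, against 30.2 over all other protein-coding genes.

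No nucleosome position at a CatSper gene was called in more than 1 list. Calls whose midpoints lay within 73 bp were joined, also across lists, which gave 56 positions, 7 in M and 49 in RS. Each came from a single list, even where calls lay close together, as for RS at 0.5 and 1 U near 99 kb into Catspere1. In windows of all protein-coding genes, outside 10 kb bins with more than 20 calls, 1961 of 87362 positions (2.24%) were in 2 or more lists. At that share 1.26 of 56 positions would be shared, and 0 of 56 allows a share of up to 5.36%, so the absence of sharing does not set this family apart. The stage difference given here is one of how many calls fell in these genes. Whether any position recurs between lists cannot be decided from so few positions.

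Most positions were also close to the minimum of reads. Of the 56 positions, 41 had 1 call, 10 had 2 overlapping calls and 5 had 3. In M, 7 of 9 calls stood at the minimum of 6 reads and none exceeded 7. In RS, 48 of 67 calls (71.6%, exact binomial interval 59.3% to 82.0%) stood at the minimum, against 68.9% of all RS calls. The strongest calls had 11 reads in Catspere2 (chr1:177995342-177995481) and 10 reads in Catspere1 (chr1:177943127-177943266), both in RS at 0.5 U. No CatSper window touched any of the 10 kb bins with more than 20 calls. Calls within 73 bp counted as 1 position gave ratios of RS to M of 7.75 (1.30 to 315), 4.35 (1.09 to 25) and 5.05 (1.08 to 31.2) from 0.5 to 2 U.

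Calls did not lie at the transcript starts listed in the promoter table. RefSeq promoter entries were found for 8 of the 10 genes, with 11 starts, and no call of any list lay within 1000 bp of one. Catsper1 and Catsperg2 had no entry, so their starts were not examined. At Catspere2 the listed starts lie inside the gene. Just before its longest annotated extent, 2 overlapping calls of RS at 0.5 U lay 0.14 and 0.12 kb away. Over all 32851 entries, 0.402%, 0.944% and 1.16% of the 300 bp promoter windows held a call in M and 1.55%, 0.524% and 0.417% in RS. A count of 0 at the 11 CatSper windows of 300 bp is thus what most sets of this size would give. The 2 Catspere2 windows overlap, so the 11 are not all separate. No such share was computed for the 1000 bp around a start. In the 250 bases before the start, the median number of CpG dinucleotides was 7 over the CatSper entries and 6 over all entries. Catsper2 and Catsperd, the genes with no call in any list, had the entries with the most, 35 and 25. A second entry of Catsperd had 11. Catsperb, with calls in 3 lists, had 1, and so did Catsper4, with calls in 2 lists. Catspere1, with the most calls, had 5, and Catsperg1, with 1 call, had 5 and 7 in its entries. Whether the CpG number goes with the calls was not tested. The bases of the Catsperb entry outside the gene, from chr12:101404423-101404644 on the plus strand, are printed with the CpG in capitals to show such a sparse promoter.
Catsperb: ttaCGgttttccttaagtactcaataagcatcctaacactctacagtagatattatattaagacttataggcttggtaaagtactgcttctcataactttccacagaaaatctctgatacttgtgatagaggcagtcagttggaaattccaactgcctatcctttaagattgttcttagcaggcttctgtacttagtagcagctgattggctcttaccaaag
Motifs were searched on both strands of the same 250 bases. The cyclic AMP response element TGACGTCA, a site of the testis activator CREM, was in none of the 11 CatSper entries and in 1.55% of all entries. CCAAT was found at Catsper2, Catsperb and Catspere2 (33.8% of all entries), GGGCGG at Catsper2, Catsperd and Catsperg1 (32.7%), and TATAAA at Catsperg1 (12.4%). These are matches of letters only.

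The DNA beside the CatSper genes was compared with the genes themselves, a comparison added after the counts were seen. The 100 kb on each side of the windows, 1819 kb in all, held 38 calls in M against 98 in RS. As means over the 3 amounts this was 21.4 per 100000 in M and 44.3 in RS, a ratio of 2.07. The flanks of Catsperg1 had 1 and 21 calls and those of Catsperd 4 and 12. The flanks of Catspere1 had 4 and 6 calls, and per 100000 they were lower in RS, at 1.12 against 2.03 in M. By this mean the flanks of 6 genes were higher in RS (Catsper2, Catsper4, Catsperb, Catsperd, Catsperg1 and Catsperg2). Those of the other 4 were lower in RS, among them the flanks of Catspere1 and Catspere2. Per Mb and per 100000 calls the flanks had 11.8 in M and 24.4 in RS, and the CatSper windows 6.52 and 35.4. Whether the region around a gene sets its count was not tested.

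Other genes of sperm calcium handling were counted in the same way. The 6 further genes of the CatSper complex had 4 calls in M against 19 in RS, with 2 genes higher in RS, 2 higher in M and 2 without a call. Slco6c1, which encodes a transporter-like subunit, had 0 calls in M against 8 in RS, and C2cd6, needed to bring the channel into the tail, had 3 and 8. By mean calls per 100000 C2cd6 was close in the stages, at 1.66 in M and 1.49 in RS. Efcab9, the calcium sensor of the channel, had 1 call, in RS, and Catsperz none.

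The 19 genes of sperm ion transport and calcium signalling had 31 calls in M against 80 in RS. Of these, 11 were higher in RS, 4 were higher in M and 4 had no call. Cftr, a chloride and bicarbonate channel, had 3 and 24 calls. Adcy10, the soluble adenylyl cyclase, had 3 and 9, but per 100000 calls it was close in the stages, at 1.52 in M and 1.67 in RS. Kcnu1, the potassium channel that works beside CatSper, went the other way with 7 calls in M against 4 in RS. The 10 pore genes of other voltage-gated calcium channels had 126 calls in M against 159 in RS, and per 100000 calls 3 were higher in RS and 6 in M. Cacna1e had 35 calls in M against 51 in RS, and Cacna1c had 31 against 32, which per 100000 calls is more in M for each. The ratio of RS to M in mean calls per 100000 was 5.42 for the CatSper genes, 1.87 for the other genes of the complex, 1.56 for sperm ion transport, 0.720 for the voltage-gated channels and 1.13 for all protein-coding genes. The median difference of RS minus M per gene was 1.35, 0, 0.56, -1.96 and 0 in the same order.

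Catspere1, the gene of the family with the most calls, was compared over the 6 lists with the 1467 other protein-coding genes that had at least 20 calls. The genes with the highest Pearson correlation of calls per 100000 were Ppp3ca (0.98), Ttc28 (0.97), Dscam (0.97), Macf1 (0.96) and Magi2 (0.95). Ppp3ca, the catalytic subunit of the calcium-dependent phosphatase calcineurin, had 1, 3 and 2 calls in M against 16, 7 and 3 in RS. All 5 are longer than Catspere1, from 268 to 1485 kb. The points are the same 6 lists for every gene and the largest list differs from the rest in size, so these values describe similar profiles and no more.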

How the data were processed

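The authors' lists of nucleosome calls are BED intervals of 140 bp, each carrying a p-value deposited by the authors and no read counts. Per the submitters' processing notes, STAR 2.5.2a and GRCm38/mm10 were used. Which program called nucleosomes, and at what threshold, is not given in the sources used here. Each list was made from both replicates, per the design text of the labels, so leaving out a replicate was not possible and no test was run.

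Per the labels' protocols, digestion lasted 7.5 min at 37 °C. Midpoints (start + 70) were counted in RefSeq gene bodies with 1000 bp on each side and divided by all calls of the list. Read counts were derived by matching the p-values to Poisson tails. Poisson intervals, conditional binomial intervals of ratios and binomial intervals of shares are exact, at 95%. Intervals of RS minus M for single genes subtract averaged Poisson limits of opposite sides, and are wider than 95% intervals. Python 3.11.15, SciPy 1.17.1 and pandas 2.3.3 were used. On simulated calls at 200 genes, a planted density of 3 was recovered as 3.00.

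The members and gene lists were chosen with earlier results of these data known. Named genes were the 10 members, genes of the chromosome 1 region, the 2 genes with the most calls of each other list, and the 5 most similar to the member with the most calls; Catsperz, Efcab9 and Kcnu1 were named after their values were seen. Alternatives were other flanks, calls above 6 reads, joined calls, no dense bins, any overlap, other joining distances, and leaving out amounts or genes. The length-restricted background, the sharing outside dense bins and the flank comparison were added after the counts were seen.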

Additional observations from a re-analysis of the deposited data

Results flagged for a closer look

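The summed CatSper calls per 100000 moved in opposite directions with more MNase in the 2 stages. From 0.5 to 2 U they changed 2.57-fold in M (0.254 to 127) and 0.844-fold in RS (0.295 to 1.98). Both intervals include 1, the M value rests on 1 call against 4, and the difference between the stages was not tested.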

How the results depend on the processing

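The summed ratio kept its direction in each alternative that gave a value for the mean of the amounts. The log2 ratio of RS to M, from the means over the 3 amounts, was 2.44 and ran from 1.89 without Catspere1 to 2.84 without Catspere1 and Catspere2. It was 2.63 at equal MNase per cell and between 2.13 and 2.73 without any 1 amount. Of 87 alternatives for the summed values, the chromosome 1 region and the shared positions, 79 stayed within the interval of the value as reported, or within 1.5 times a count, and 8 did not. With calls above 6 reads, calls per 100000 were 0 in M at 0.5 U, 0 in M at 1 U, 15.1 in RS at 1 U and 0 in RS at 2 U, against 9.47 in M at 2 U and 31.1 in RS at 0.5 U. No single amount had such calls in both stages, so ratios per amount could not be formed, and at 2 U the 2 remaining calls were in M, opposite to the direction reported. The chromosome 1 region then held 0 calls in M and 14 in RS, and 15 positions remained, none of them shared. With calls within 73 bp joined, the region held 24 positions in RS. All 60 alternatives for single members stayed within their counting intervals. Those intervals are wide and include 0 for every member (-6.84 to 8.18 for Catsper2), so this count says little about how stable single genes are. With a flank of 5000 bp Catsperd was no longer without calls and was higher in M (RS minus M -1.52 per 100000). With 65.4% to 69.5% of calls at the minimum of 6 reads, a single call depends on 1 read. No paired analysis was possible because each list pools both replicates.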
